A study of Mus musculus with 8 samples.

Results

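Mitochondrial and peroxisomal fatty acid oxidation was followed through 30 genes in macrophages of mouse pancreatic islets. The genes were taken by symbol from the deposited table, where each of the 30 matched 1 row of 48440. They cover the carnitine shuttle, the enzymes of the beta-oxidation spiral, the electron transfer flavoprotein, the nuclear receptors and coactivators that control these genes, and Pdk4, Ucp2 and Acot2. Male wild-type C57BL/6J mice ate chow (8% fat, 21% protein and 71% carbohydrate, 10.88 kJ/g) or a high-fat diet (HFD; 45% fat, 20% protein and 35% carbohydrate, 19.67 kJ/g) for 8 weeks from 8 weeks of age. CD11b+ F4/80+ cells were prepared from their islets at 16 weeks of age, with 4 libraries per diet and each library pooled from 2 mice, so a library stands for a pool and not for a mouse. No genotype or treatment other than the diet was given.

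Long-chain fatty acids enter mitochondria as carnitine esters, made by carnitine palmitoyltransferase 1 at the outer membrane and turned back into acyl-CoA inside. The beta-oxidation spiral then shortens the chain in repeated rounds of dehydrogenation, hydration, a further dehydrogenation and thiolysis, and passes electrons through the electron transfer flavoprotein to the respiratory chain. Peroxisomes run a related route for very long and branched chains. In macrophages the pathway has been studied above all in alternatively activated cells, and PPAR receptors with PGC-1 coactivators are its known transcriptional regulators.

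Library totals ran from 4288661 to 6391245 counts. Levels are given as CPM, counts scaled to a common library size, with scaling factors from the trimmed mean of M-values (TMM). Where a library had a count of 0, a level below 0.468 to 0.708 CPM, depending on the library, could not be seen (3 counts, counting error only). The sort markers Adgre1 (F4/80) and Itgam (CD11b) were at 322 to 600 CPM and 197 to 411 CPM. The summed level of 8 macrophage markers was 4125 to 5909 CPM on chow and 4024 to 5348 CPM on HFD. Other cell types were traced too: 15 acinar enzymes summed to 0.225 to 3434 CPM on chow and 37.4 to 1723 CPM on HFD, and 17 endocrine genes to 505 to 1834 CPM and 1043 to 1879 CPM. Of 6 adipocyte markers 5 were at 0 in all 8 libraries, among them Adipoq and Plin1, and Plin4 reached 1.39 CPM in 1 library. The 12 stellate and fibroblast markers summed to 24, 80.9, 133 and 91.3 CPM in chow replicates 1 to 4 and to 424, 288, 233 and 106 CPM in HFD replicates 5 to 8. A single pericyte gene, Rgs5, held most of the sum in chow replicates 2 to 4 and in HFD replicate 8, at 78.8, 128, 85.4 and 97.0 CPM. Without Rgs5, a choice made after its levels were seen, the sums were 24, 2.03, 4.56 and 5.90 CPM on chow and 393, 237, 208 and 8.64 CPM on HFD. Col1a1, Dcn and Lum had 0 counts on chow and were high in HFD replicates 5 to 7 alone, where Col1a1 was at 72.5, 41.1 and 30.8 CPM. In bulk libraries fewer cells of a type and less RNA per cell cannot be told apart.

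No fatty acid oxidation gene passed the test of HFD against chow. Of the 30 genes 24 passed the filter on low counts and were tested with edgeR's quasi-likelihood test, and 0 had an adjusted p under 0.05, as did 0 of all 10129 tested genes (0.0%). At an unadjusted p under 0.05 there was 1 of the 24, Cpt1a, higher on HFD, against 5.35% of all tested genes (2.61% higher and 2.74% lower). DESeq2, which gave Cpt2 no adjusted p, called 0, against 0.297% of the genes with one, and limma-voom called 0, against 0.00987%. None of the 24 had diet groups without overlap, where 3.39% of all tested genes did. The log2 fold change was above 0 for 14 of the 24 genes (48.6% of all tested genes) and below 0 for 10, with a median of 0.12 beside -0.02 over all tested genes, and 4 genes were beyond 1 in size (20.9% of all tested genes).

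**Figure D1:**
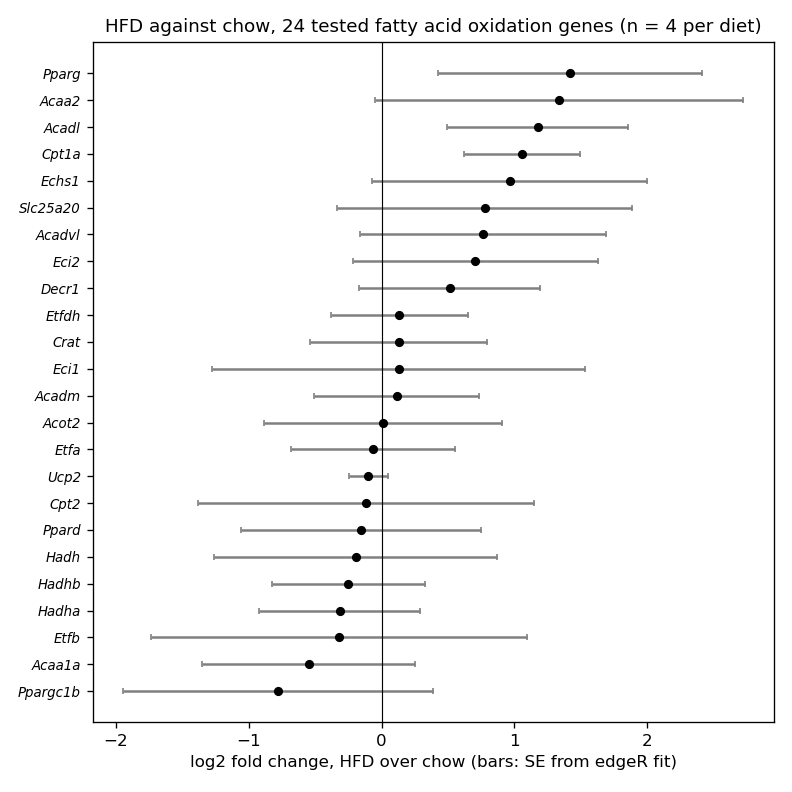
Log2 fold change of HFD over chow (x axis) with its SE for the 24 tested fatty acid oxidation genes (y axis), from the edgeR fit with 4 libraries per diet. Pparg, Acaa2, Acadl and Cpt1a lie above 1, and Ucp2 has the shortest bar, an SE of 0.15.

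The genes varied widely among libraries of the same diet. Their median biological coefficient of variation in the edgeR fit was 85.8%, beside 73.6% over all tested genes, and their median level was 16.7 CPM beside 22.8 CPM. Ucp2 varied least of the 24, at 24.6%, and Cpt1a next, at 45.2%. Of the 24 tested genes 20 had a count in all 8 libraries. The other 6 of the 30, Cpt1b, Acads, Ehhadh, Ppara, Ppargc1a and Pdk4, did not pass the filter and are given by library.

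**Figure D2:**
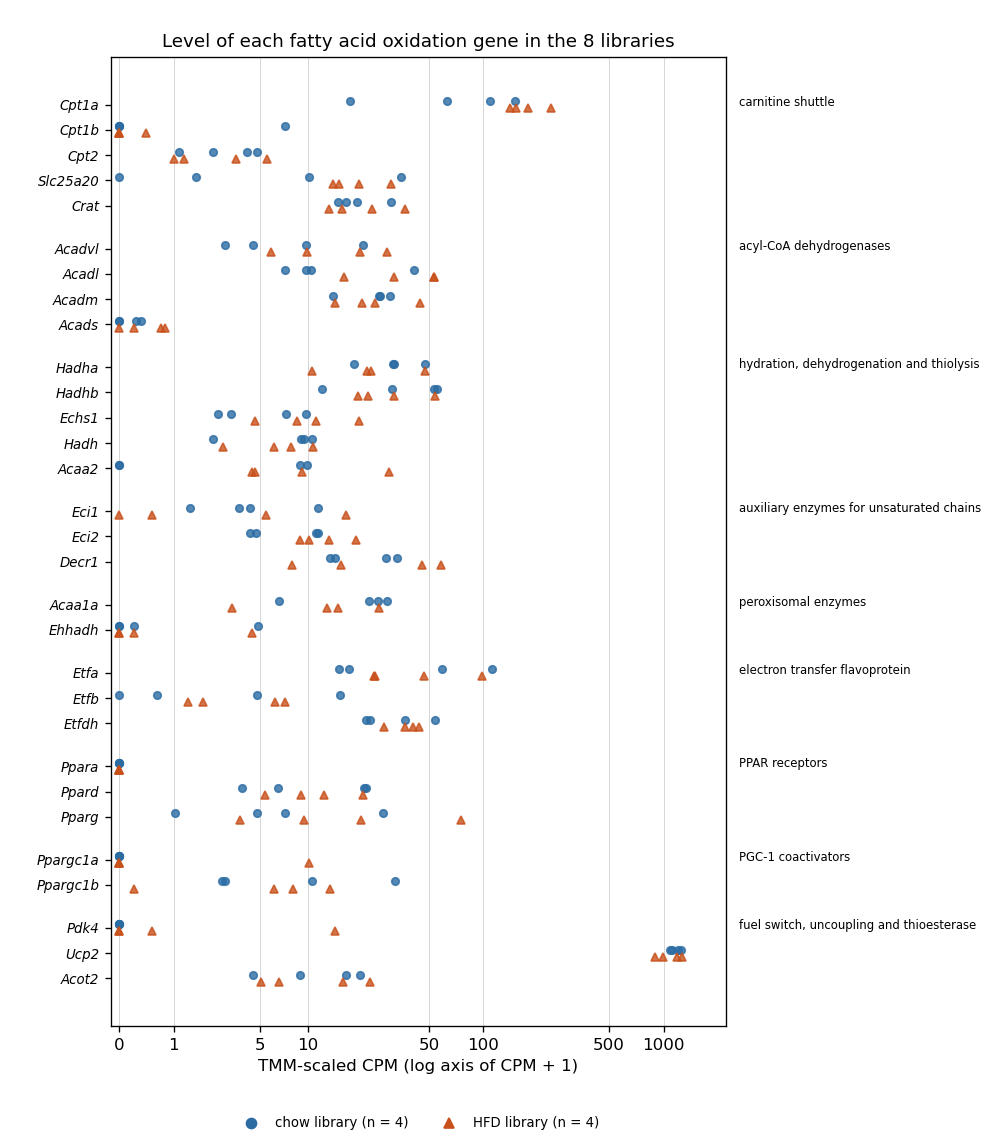
TMM-scaled CPM of each of the 30 genes (x axis, log axis of CPM + 1) in the 4 chow libraries (circles) and the 4 HFD libraries (triangles), grouped by role. Ucp2 lies between 894 and 1269 CPM in every library, Cpt1a reaches 238 CPM, and Ppara is at 0 throughout.

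Levels of different genes can be set side by side only per length. Per kilobase of summed exon length, the mean over the 8 libraries was 160.3 CPM for Ucp2, 27.2 CPM for Etfa, 17.1 CPM for Cpt1a and 13.9 CPM for Acadl. The library ranges of Etfa (8.32 to 61.0 CPM per kilobase), Cpt1a (2.31 to 31.1) and Acadl (3.59 to 26.6) overlapped, while that of Ucp2 (128 to 182) lay above all of them. Ucp2, Etfa and Cpt1a were also the highest of the 30 with the longest coding transcript as the length, a choice added after seeing the data.

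The carnitine shuttle holds the gene with the smallest p of the 30. Cpt1a (chromosome 19, 3322334 to 3385733, GRCm38) encodes the liver-type carnitine palmitoyltransferase 1, the rate-limiting and malonyl-CoA-inhibited entry step. It was at 149.8, 62.8, 17.6 and 109.7 CPM in chow replicates 1 to 4 and at 238, 152, 178 and 141 CPM in HFD replicates 5 to 8. Chow replicate 3 was the lowest by far, and chow replicate 1 lay above HFD replicate 8, the only pair that crossed. With upper-quartile scaling in place of TMM no pair crossed. The means were 85.0 ± 57.3 and 177 ± 43.4 CPM (SD, n = 4), a log2 fold change of 1.06 (SE 0.44; edgeR adjusted p = 0.861, and 0.135 to 0.998 over the alternatives). It stood at rank 300 of 10129 genes by p, and all 4 HFD libraries lay above the chow median. The log2 fold change was 0.72 (SE 0.33) without chow replicate 3 and 1.48 (SE 0.45) without chow replicate 1. Without chow replicate 2 or without HFD replicate 5 its unadjusted p no longer stayed under 0.05. The stellate and fibroblast sum without Rgs5 was highest in each diet in the library with the highest Cpt1a, at 24 CPM in chow replicate 1 and 393 CPM in HFD replicate 5. With Rgs5 chow replicate 1 had the lowest sum on chow instead. Without Rgs5 the sum in chow replicate 1 was nearly all Sparc, at 23.8 CPM, with Col1a1, Dcn and Lum at 0. HFD replicate 8 had the lowest sum without Rgs5 on HFD, 8.64 CPM, and the lowest Cpt1a on HFD, 141 CPM. Other libraries did not follow this order. On chow the lowest sum without Rgs5 was in replicate 2, at 2.03 CPM, and the lowest Cpt1a in replicate 3. HFD replicate 6 had a higher sum than HFD replicate 7, 237 against 208 CPM, and a lower Cpt1a, 152 against 178 CPM. The part of these cells in the difference was not tested.

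The other isoform and the inner steps of the shuttle had lower mean levels per kilobase of exon than Cpt1a, from 0.281 CPM for Cpt1b to 3.96 CPM for Crat. Cpt1b, the muscle-type isoform, had 46 counts in chow replicate 2, 2 counts in HFD replicate 5 and 0 in the other 6 libraries; 81.4% of its exon bases are shared with the model Gm44502 on the same strand, so its counts are uncertain. Cpt2, which regenerates acyl-CoA inside the mitochondrion, ran from 1.12 to 4.72 CPM on chow and from 1.00 to 5.56 CPM on HFD, with full overlap. Slc25a20, the carnitine-acylcarnitine translocase that links both enzymes, was at 34.8, 0, 1.66 and 10.2 CPM on chow and at 19.9, 15.3, 14.1 and 30.5 CPM on HFD. The HFD libraries were all above 3 of the 4 chow libraries, and chow replicate 1 was above them all. EdgeR put the log2 fold change at 0.78 (SE 1.11; adjusted p = 0.987) and limma-voom at 3.19 (SE 1.33; adjusted p = 0.846). Crat, which moves acetyl and short acyl groups to carnitine, was at 20.4 ± 6.84 and 22.3 ± 10.3 CPM (SD, n = 4). Summed over the 5 genes, the shuttle was at 203, 89.0, 51.8 and 144 CPM on chow and at 298, 186, 216 and 188 CPM on HFD, with chow replicate 1 inside the HFD range and Cpt1a as the bulk of every HFD sum.

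**Figure D3:**
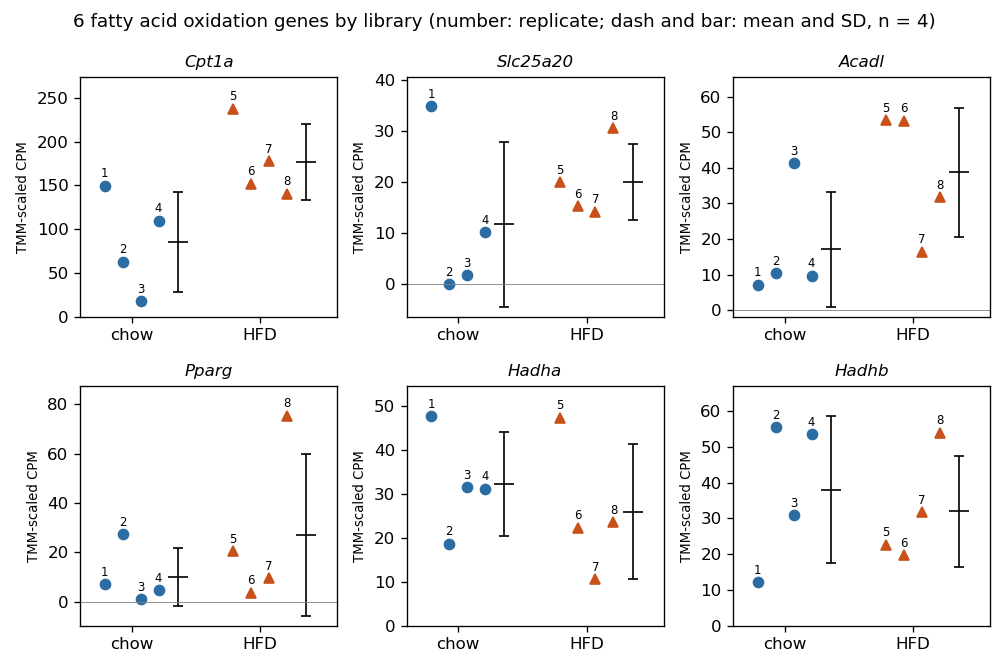
TMM-scaled CPM (y axis) of 6 fatty acid oxidation genes in each chow (circles) and HFD library (triangles), labelled by replicate, with mean and SD. In Cpt1a only chow replicate 1 reaches the HFD libraries, in Acadl only chow replicate 3, and Hadha and Hadhb peak in different libraries.

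Promoter sequences show what lies before these starts. RefSeq promoters on GRCm38.p6, 250 bases before to 50 after a start, were found for 25 of the 30 genes, 27 promoters in all; Acaa2, Cpt1b, Crat, Decr1 and Ppargc1b were not matched. PPAR receptors, paired with RXR, bind a direct repeat of the hexamer AGGTCA with 1 base between the copies. That exact repeat, searched on both strands, was in 0 of the 27 promoters and in 13 of 32851 promoters overall (0.0396%). The hexamer alone, which that repeat contains, was on either strand in 6 of the 27 (22.2%) and in 16.3% of all promoters. A match describes letters only and was not tested as a binding site. The 250 bases before the RefSeq start of Cpt1a, chr19:3323051-3323300 on the plus strand, are shown because Cpt1a leads the comparison. They lie inside the range given above for the gene, which begins further upstream, at 3322334. Capitals mark the hexamer, which here lies on the opposite strand as TGACCT.
Cpt1a: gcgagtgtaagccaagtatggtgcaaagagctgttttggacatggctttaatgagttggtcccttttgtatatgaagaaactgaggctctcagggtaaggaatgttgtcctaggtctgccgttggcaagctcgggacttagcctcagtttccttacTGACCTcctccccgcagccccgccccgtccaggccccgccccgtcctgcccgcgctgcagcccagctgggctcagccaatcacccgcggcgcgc

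In the other promoters that hold the hexamer no second copy in direct repeat was seen within the searched sequence. Short windows around the hexamer let its flanks be compared. They are Acadvl (chr11:70015498-70015527, minus strand), Echs1 (chr7:140116487-140116516, minus strand), Acadm (chr3:153944875-153944893, minus strand) and the starts of Pparg at chr6:115361104-115361133 and chr6:115362328-115362348 on the plus strand. Each is written 5′ to 3′ on the strand of its gene, with the hexamer or its complement in capitals. The searched Acadm sequence begins just before its hexamer, so a copy further upstream could not be seen.
Acadvl: atggatcaccctAGGTCAggtagaatacag
Echs1: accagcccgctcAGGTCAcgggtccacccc
Acadm: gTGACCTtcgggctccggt
Pparg, upstream start: agccgccgcctcAGGTCAgagtcgccccgg
Pparg, downstream start: agggacgcgaggAGGTCAaga
Of the 5 tested genes with the hexamer, Cpt1a, Acadvl, Echs1, Acadm and Pparg, none passed the test. Their log2 fold changes ran from 0.11 for Acadm to 1.42 for Pparg. Those of tested genes with a promoter but no hexamer ran from -0.55 for Acaa1a to 1.18 for Acadl. A link between the hexamer and the diet was not tested. The 27 promoters found, of 25 of the 30 genes, had a median of 60.7% G and C beside 52.7% over all promoters.

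Among the acyl-CoA dehydrogenases, which start each round and differ in the chain length they take, Acadl stood out by size. Acadl (chromosome 1, 66830839 to 66863277), the long-chain enzyme, was at 7.19, 10.5, 41.3 and 9.68 CPM on chow and at 53.4, 53.3, 16.4 and 31.7 CPM on HFD. Chow replicate 3 was apart from the other 3 chow libraries and inside the HFD range. With 4 of 4 HFD libraries above the chow median, the log2 fold change was 1.18 (SE 0.68; edgeR adjusted p = 0.987), and without chow replicate 3 it was 2.09 (SE 0.70; edgeR adjusted p = 0.672). Acadvl, the very-long-chain enzyme of the inner membrane, was at 4.49, 2.81, 9.73 and 21.0 CPM on chow and at 20.2, 9.77, 28.9 and 5.83 CPM on HFD, so the groups overlapped almost throughout. The fitted log2 fold change was 0.77 (SE 0.93; edgeR adjusted p = 0.987), and 42.9% of its exon bases overlap Dvl2 on the opposite strand, whose reads cannot be told apart here. Acadm, the medium-chain enzyme, ran from 14.2 to 29.97 CPM on chow and from 14.5 to 44.4 CPM on HFD (log2 fold change 0.11, SE 0.62). Acads, the short-chain enzyme, had 3 counts in all on chow and 9 on HFD, near the floor of detection. The summed level of the 4 dehydrogenases was 37.7, 43.6, 77.3 and 45.1 CPM on chow and 89.0, 88.4, 66.4 and 82.0 CPM on HFD; only chow replicate 3 and HFD replicate 7 crossed.

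The later steps of the spiral showed no common direction. Hadha and Hadhb encode the alpha and beta subunits of the mitochondrial trifunctional protein, which carries out hydration, the later dehydrogenation and thiolysis of long chains. They lie head to head on chromosome 5, Hadha at 30118304 to 30155162 on the minus strand and Hadhb at 30155248 to 30184593 on the plus strand. The 85 bases between their annotated ends, chr5:30155163-30155247 on the plus strand, are printed because they lie before the annotated starts of both genes; 69.4% are G or C.
Hadha-Hadhb: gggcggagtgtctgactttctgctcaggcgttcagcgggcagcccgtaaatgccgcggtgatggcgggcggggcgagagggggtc
Hadha was at 47.6, 18.6, 31.5 and 31.2 CPM on chow and at 47.3, 22.2, 10.5 and 23.5 CPM on HFD. Hadhb was at 12.1, 55.6, 30.9 and 53.6 CPM on chow and at 22.6, 19.6, 31.8 and 54.0 CPM on HFD. In chow replicate 1 Hadha was at its highest of the 8 libraries and Hadhb at its lowest, and in chow replicate 2 Hadhb was at its highest. Neither passed the test, with log2 fold changes of -0.31 (SE 0.61) for Hadha and -0.25 (SE 0.58) for Hadhb (edgeR adjusted p = 0.987 each). Hadhb shares 69.7% of its coding transcript at 99.79% identity with the model Gm13910, which held 2 counts in all.

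None of the enzymes for shorter chains passed the test. Echs1, the short-chain enoyl-CoA hydratase, was at 9.66, 2.50, 3.11 and 7.32 CPM on chow and at 19.9, 8.51, 11.2 and 4.62 CPM on HFD. HFD replicates 5 and 7 were above every chow library, and HFD replicates 6 and 8 were inside the chow range. This gave a log2 fold change of 0.97 (SE 1.04; edgeR adjusted p = 0.987). Hadh, the hydroxyacyl-CoA dehydrogenase that follows it, was at 7.83 ± 3.76 and 6.84 ± 3.30 CPM (SD, n = 4). Acaa2, the mitochondrial thiolase, was at 0, 9.84, 0 and 8.97 CPM on chow and at 4.37, 9.20, 29.5 and 4.62 CPM on HFD. It was seen in 2 of 4 chow and 4 of 4 HFD libraries, and HFD replicate 7 held most of its HFD counts. Its log2 fold change was 1.34 (SE 1.39; edgeR adjusted p = 0.987). Over Hadha, Hadhb, Echs1, Hadh and Acaa2 the sum was 88.4 ± 19.0 CPM on chow and 87.7 ± 14.9 CPM on HFD, a difference well within the spread.

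Chains with unsaturated bonds need auxiliary enzymes, whose diet groups overlapped as well. Decr1, the dienoyl-CoA reductase, was at 33.0, 13.6, 28.6 and 14.4 CPM on chow and at 45.7, 7.99, 58.6 and 15.7 CPM on HFD. The HFD values fell into a high pair, replicates 5 and 7, and a low pair, replicates 6 and 8. Its log2 fold change was 0.51 (SE 0.68). Eci1, a mitochondrial enoyl-CoA isomerase, ran from 1.45 to 11.5 CPM on chow and from 0 to 16.7 CPM on HFD; the log2 fold change was 0.13 (SE 1.40) in edgeR and -1.42 in limma-voom. Eci2, the isomerase found in peroxisomes as well, was at 7.86 ± 3.92 and 12.8 ± 4.57 CPM (SD, n = 4), a log2 fold change of 0.71 (SE 0.93; edgeR adjusted p = 0.987), with 4 of 4 HFD libraries above the chow median.

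Of the peroxisomal enzymes Acaa1a did not pass the test, and Ehhadh had too few counts to be tested. Acaa1a, the peroxisomal thiolase, was at 22.9, 6.56, 28.8 and 25.7 CPM on chow and at 26.0, 15.1, 3.16 and 13.1 CPM on HFD. Of the HFD libraries 3 were below 3 of the 4 chow libraries. Its log2 fold change was -0.55 (SE 0.80; edgeR adjusted p = 0.987); its near-copy Acaa1b, 96.639% identical over 81.0% of the transcript, had 0 counts. Ehhadh, the peroxisomal bifunctional enzyme, had 31 counts in chow replicate 2 and 22 in HFD replicate 5, and at most 1 in each of the other 6 libraries.

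Electrons from the dehydrogenases pass to the electron transfer flavoprotein, a dimer of the Etfa and Etfb products, and on to ubiquinone through the Etfdh product. Etfa was at 15.3, 111.9, 58.9 and 17.5 CPM on chow and at 24.8, 47.1, 98.8 and 24.5 CPM on HFD. In either diet the highest library held over 3 times the lowest. Its log2 fold change of -0.06 (SE 0.62) changed sign between scalings (0.01 on library totals), so it has no direction. Its partner Etfb ran from 0 to 15.6 CPM on chow and from 1.39 to 7.17 CPM on HFD, and 53.0% of its exon bases are shared with the model Gm45233 on the same strand. Etfdh was steadier, at 21.8, 36.5, 23.0 and 54.3 CPM on chow and at 44.1, 40.5, 36.5 and 27.9 CPM on HFD, a log2 fold change of 0.14 (SE 0.52; edgeR adjusted p = 0.987). The sum of the 3 genes was 90.02 ± 46.7 CPM on chow and 90.2 ± 37.1 CPM on HFD.

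Among the receptors and coactivators, the member best known from liver was not seen. Ppara, the fasting-induced PPAR of liver, had 0 counts in all 8 libraries. Ppard, the widely expressed receptor, was at 6.52, 3.75, 22.0 and 21.2 CPM on chow and at 12.5, 5.38, 9.06 and 21.1 CPM on HFD (log2 fold change -0.15, SE 0.90). Pparg, the receptor of adipocytes and of alternatively activated macrophages, was at 7.19, 27.5, 1.04 and 4.72 CPM on chow and at 20.5, 3.65, 9.48 and 75.3 CPM on HFD. HFD replicate 8 was apart from the rest, and the other 3 HFD libraries lay within the chow range. The log2 fold change was 1.42 (SE 1.00; edgeR adjusted p = 0.987). It ran from 0.14 to 2.65 as each library was left out in turn, with 2.65 (SE 1.11; edgeR adjusted p = 0.747) reached without chow replicate 2 and 0.14 without HFD replicate 8. Ppargc1b, which encodes the coactivator PGC-1 beta, was at 2.70, 10.6, 31.9 and 2.83 CPM on chow and at 6.16, 13.5, 0.211 and 8.03 CPM on HFD, a log2 fold change of -0.78 (SE 1.16). Its direction rested in chow replicate 3, without which the value was 0.37. Ppargc1a, which encodes PGC-1 alpha, had 51 counts, all in HFD replicate 5.

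The last 3 genes act beside the spiral. Ucp2 (chromosome 7, 100493337 to 100502020), a mitochondrial carrier of the uncoupling protein family that is abundant in immune cells, held most of the counts of the 30 genes. It was at 1194, 1109, 1085 and 1248 CPM on chow and at 987, 1269, 894 and 1177 CPM on HFD. The groups overlapped, and HFD replicates 5 and 7 were below every chow library. The log2 fold change was -0.10 (SE 0.15; edgeR adjusted p = 0.987), an interval of -0.39 to 0.19 at 2 SE, the narrowest of the 24. Pdk4, the kinase that switches pyruvate dehydrogenase off when fatty acids are burned, had 0 counts in the 4 chow libraries and 0, 3, 0 and 72 in HFD replicates 5 to 8. With HFD replicate 8 left aside its level was at or below the floor in every library. Acot2, a mitochondrial acyl-CoA thioesterase, was at 12.6 ± 7.22 and 12.7 ± 8.49 CPM (SD, n = 4); it is 95.055% identical to Acot1 over 58.0% of its transcript, so its counts are uncertain.

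Summed over all 30 genes the level was 1616 ± 89.98 CPM on chow and 1694 ± 131 CPM on HFD (SD, n = 4), with overlap. Without Ucp2, a choice made after its level was seen, the sums were 448, 463, 437 and 481 CPM on chow and 719, 503, 612 and 616 CPM on HFD, and every HFD library lay above every chow library. Without Cpt1a as well they were 299, 400.0, 419 and 371 CPM on chow and 481, 351, 435 and 475 CPM on HFD, and the groups overlapped. These sums are descriptions with no test. The stellate and fibroblast sum without Rgs5 also peaked in HFD replicate 5, at 393 CPM, and was 8.64 CPM in HFD replicate 8, where the genes without Ucp2 summed to 616 CPM; its part in the higher HFD sums was not tested.

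Of 97 further pathway symbols found in the table, 66 genes were tested, and edgeR called 0 with 2 higher and 2 lower on HFD at an unadjusted p under 0.05, beside 2.61% and 2.74% of all tested genes. The 4 of 66 were thus near the background of 5.35%. DESeq2 called 1, Cd36 (0.297% of all genes with an adjusted p), and limma-voom 0 (0.00987%). Their median log2 fold change was -0.08, with 31 above 0 (48.6% of all tested genes) and 35 below. Groups did not overlap for 1 higher gene, Cd36, and 3 lower, among them Acsl1 and Acox3 (1.68% and 1.71% of all tested genes). The fatty acid translocase gene Cd36, a PPAR target, was at 163, 213, 164 and 127 CPM on chow and at 399, 363, 296 and 228 CPM on HFD (log2 fold change 0.95, SE 0.24; edgeR adjusted p = 0.585). Acsl1 activates long-chain fatty acids to acyl-CoA just before Cpt1a acts on them. It lay on the opposite side, at 316, 218, 139 and 205 CPM on chow and at 100.3, 91.7, 131 and 102 CPM on HFD (log2 fold change -1.05, SE 0.28; edgeR adjusted p = 0.585). Plin2, a lipid droplet coat gene and PPAR target, was at 49.0, 84.5, 203 and 107 CPM on chow and at 306, 248, 186 and 254 CPM on HFD, where chow replicate 3 crossed HFD replicate 7 (log2 fold change 1.16, SE 0.34; edgeR adjusted p = 0.715). Cd36 and Plin2 were 2 of 14 genes listed as further PPAR targets, a list that does not hold Acsl1. Of the 14 genes 6 were tested, with 5 above 0 (48.6% of all tested genes) and 1 below. The lower gene was Txnip, with a log2 fold change of -0.275 (SE 0.20). Cyp4a10, Cyp4a14 and Cidec of that list had 0 counts. The differences in Cd36, Acsl1 and Plin2 stood beside the higher stellate and fibroblast sum in HFD replicates 5 to 7. In HFD replicate 8 that sum was 8.64 CPM without Rgs5 and 106 CPM with it. Cd36 and Plin2 were at 228 and 254 CPM there and Acsl1 at 102 CPM. The part of these cells in the differences was not tested.

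The peroxisomal genes outside the 30 were mixed. Acox3, an acyl-CoA oxidase for branched chains, was at 211, 119.7, 125 and 139.5 CPM on chow and at 112, 82.1, 63.9 and 54.4 CPM on HFD (log2 fold change -0.93, SE 0.32; edgeR adjusted p = 0.752). Every HFD library lay below every chow library. Of the 15 tested genes of peroxisomal import and oxidation 6 were above 0 and 9 below, with a median log2 fold change of -0.29.

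**Figure D4:**
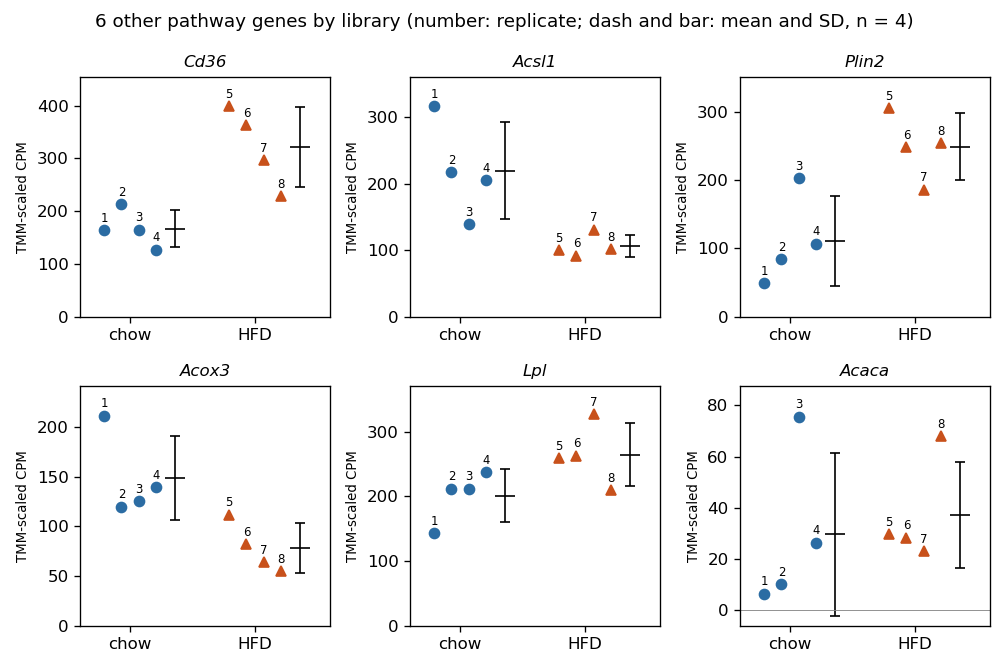
TMM-scaled CPM (y axis) of 6 further pathway genes in each chow (circles) and HFD library (triangles), labelled by replicate, with mean and SD. The diet groups are apart in Cd36, Acsl1 and Acox3, and they cross in Plin2, Lpl and Acaca.

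Malonyl-CoA, made by acetyl-CoA carboxylase, inhibits carnitine palmitoyltransferase 1. Of 8 genes that control its level 5 were tested, and 0 had an unadjusted p under 0.05, beside 5.35% of all tested genes. Acaca was at 29.7 ± 31.8 and 37.3 ± 20.7 CPM (log2 fold change 0.33, SE 0.69), and Acacb, the isoform at the mitochondrial surface, had 0 counts. Mlycd, which breaks malonyl-CoA down, was at 0.225, 0.156, 2.90 and 0 CPM on chow and at 4.77, 0.347, 0.843 and 15.3 CPM on HFD, and did not pass the filter. AMP-activated kinase inhibits acetyl-CoA carboxylase, and its 4 tested subunit genes had log2 fold changes from -1.47 (SE 1.1) for Prkab1 to 1.13 (SE 1.38) for Prkag1. Angptl4, a secreted lipase inhibitor induced by PPAR receptors, was at 0 in the 4 chow libraries and at 2.19, 4.34, 3.58 and 0 CPM on HFD, so 3 of 4 HFD libraries were above the floor. Those 3 were the libraries with high fibroblast genes: Lum was at 0 on chow and at 11.3, 13.5, 12.7 and 0 CPM in HFD replicates 5 to 8. The part of these cells in the Angptl4 counts was not tested. Lpl, Nrf1 and Acad9, also among the 8 with the smallest p of this list, had log2 fold changes of 0.40 (SE 0.23), -1.46 (SE 0.72) and -1.93 (SE 1.03), and that of Acad9 was 0.48 without chow replicate 1.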

How the data were processed

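The authors deposited 1 table of expected counts per Ensembl gene, not scaled between the 8 libraries; 7.66% to 8.32% of the values above 0 were not whole, and all were rounded before testing. Per the submitters' processing notes, FastQC, Trim Galore and STAR were used with GRCm38. The counting program, the annotation, the strand setting and all versions were not given in the sources used here. RNA came from columns and 500 pg was amplified with Ovation RNA-Seq System V2, per the labels' protocols. Symbols were the table's own, or GENCODE M21 where it had none. All 28 pairs of libraries differed beyond sampling noise (chi-square over degrees of freedom of at least 39.4); whether amplified reads are independent molecules is not known, so floors cover counting error only.

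HFD was compared with chow by edgeR (version 4.0.16; TMM, filterByExpr, robust quasi-likelihood fit, Benjamini-Hochberg over 10129 genes at 0.05, two-sided), with SE as the log2 fold change over the root of F. DESeq2 (1.42.0), limma-voom (3.58.1), other scalings and filters and leave-one-out fits were alternatives, and the fit was tested on simulated data. There edgeR called 5.33% of genes changed 2-fold, 31.3% of those changed 4-fold and 0.0461% of unchanged genes. A gene that was not called may thus still differ by such sizes. Overlaps and similarity came from GENCODE M21. The genes, the 99 further pathway symbols (Acad12 and Mmut not found) and the marker lists were chosen with earlier results of these data known. Named were all 30 genes, the 8 further pathway genes with the smallest p, and a fixed panel with Acsl1, Acaca, Acacb, Mlycd, Angptl4, Plin2 and Cd36; some of these further genes are not reported here. Further marker sums in chow and HFD were 0 to 5.39 and 1.00 to 14.9 CPM (duct), and 2.12 to 24.9 and 0.402 to 21.9 (endothelial). Those of T and NK cells were 62.2 to 136 and 82.3 to 122, mostly Il7r, with Cd3e, Nkg7 and Gzma at 0. Others were 250.4 to 448 and 211 to 300.2 (B cell, mostly Ighm), and 273 to 327 and 154 to 289.8 (dendritic). The last were 30.6 to 93.0 and 35.9 to 102 (neutrophil, Csf3r alone), and 0 to 0.520 and 0 to 0.211 (erythroid).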

Additional observations from a re-analysis of the deposited data

Results flagged for a closer look

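In 7 of the 56 diet groups of 4 libraries with any spread, 1 library stood apart from the other 3 by more than Dixon's 95% critical value. Chance gives about 1 in 20 for values with normal error, a rate that does not hold in the 6 groups where the other 3 libraries were at or near 0. Acadl was at 41.3 CPM in chow replicate 3, against 7.19 to 10.5 CPM in the other chow libraries. Pdk4 was at 14.5 CPM in HFD replicate 8, against 0 to 0.521 CPM, and Ppargc1a at 10.1 CPM in HFD replicate 5, against 0 in the other HFD libraries. Ehhadh was at 4.84 CPM in chow replicate 2 (others 0 to 0.207 CPM) and at 4.37 CPM in HFD replicate 5 (others 0 to 0.201 CPM). Cpt1b was at 7.18 CPM in chow replicate 2 and at 0.397 CPM in HFD replicate 5, with 0 in the others of each diet; the latter is 2 counts, under the floor of 0.596 CPM (3 counts) in that library. Of these 5 genes only Acadl passed the filter on low counts.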

How the results depend on the processing

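No paired analysis was possible because chow carries the numbers 1 to 4 and HFD the numbers 5 to 8, so that no number is shared. No alternative called any of the 30 genes. Over all genes, 0 calls became 45 with no filter, 28 with DESeq2, 1 with limma-voom, and 0 to 11 with 1 library left out (11 without HFD replicate 8). Pathway genes called went from 0 to 1 with no filter (Plin2) and to 1 with DESeq2 (Cd36). The count of the 30 genes at an unadjusted p under 0.05 went from 1 to 3 with no filter (Cpt1a, Pdk4 and Ppargc1a). That was 3 of 29 tested, where 11.6% of all tested genes were under 0.05. Pdk4 had 72 of its 75 counts in HFD replicate 8, and Ppargc1a all of its 51 in HFD replicate 5. With limma-voom the count was 2 of 24, against 5.63% of all tested genes. With 1 library left out the count ranged from 0 to 2, against 4.61% to 6.41%. Genes without overlap of the diets went from 0 to 1, Cpt1a, with upper-quartile scaling and ranged from 0 to 2 with 1 library left out. The latter were Cpt1a and Slc25a20 without chow replicate 1, Acadl without chow replicate 3, and Cpt1a without HFD replicate 8. The share over all tested genes was not counted at these settings. Groups with fewer libraries separate more readily by chance, so these counts cannot be read as a result about the genes. The median log2 fold change ranged from 0.009 to 0.285 over those fits. Of 381 refits of the 24 genes 350 kept their direction and their side of the threshold, and 13 genes never changed direction. With limma-voom the sign turned for Eci1 (-1.419), Etfa (0.004), Etfb (1.137) and Ppard (0.123), and on library totals for Etfa (0.009). With 1 library left out, values ranged from -0.692 to 0.163 for Cpt2, -0.206 to 0.385 for Crat, -0.272 to 0.314 for Acadm, -0.501 to 0.065 for Hadh, -1.361 to 0.864 for Eci1, -0.664 to 0.674 for Etfa, -0.743 to 1.234 for Etfb, -0.026 to 0.449 for Etfdh, -0.572 to 0.20 for Ppard, -1.335 to 0.37 for Ppargc1b, -0.439 to 0.328 for Acot2, -2.342 to 0.477 for Acad9 and -0.136 to 1.377 for Acaca. The cause of these changes was not tested. Of the 6 genes below the filter 5 were tested only with no filter, and Ppara, with 0 counts, in no alternative. Where a count was 0, levels below 0.468 to 0.708 CPM could not be seen at the depth of these libraries.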
